A study of Mus musculus with 12 samples.

Results

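The complement genes described here are C1qa, C1qb, C1qc, C3, C4b, C3ar1, C5ar1, Serping1 and Cfb. They were chosen by name, as the rows of the count table that carry these symbols, and are 9 of the 39756 genes listed. RNA was sequenced from ischemic hemispheres of 12 C57BL/6J mice, male and 9 to 10 weeks old by the study's methods, with 4 mice in each of 3 groups. Sham mice had sham surgery and were given saline like the Vehicle mice. Vehicle mice received saline and had tMCAO, a transient occlusion of the middle cerebral artery by a filament that is later pulled back so that blood returns. The occlusion lasted 45 min by the study's methods. LJP mice underwent the same occlusion and received Laminaria japonica polysaccharide (LJP), a sulfated polysaccharide of brown kelp, by mouth for 14 days before surgery and afterwards. The labels give no dose; after comparing doses the study went on with LJP-M, 200 mg/kg. The time after reperfusion of the sequenced mice is not given in the sources used here, and all libraries carry the same batch label. The tissue was a whole hemisphere, so infarct, its border and spared brain were read together.

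Complement is a cascade of plasma proteins that marks debris, pathogens and damaged cells for removal. The classical pathway starts when C1q, assembled from the chains encoded by C1qa, C1qb and C1qc, binds a target and the attached proteases cleave C4 and then C3; factor B (Cfb) amplifies C3 cleavage in the alternative pathway, and the peptides C3a and C5a signal through the receptors C3aR (C3ar1) and C5aR1 (C5ar1). C1 inhibitor (Serping1) blocks the C1 proteases. In brain, microglia are the main source of C1q, astrocytes and microglia make C4 and C3 after injury, and C1q with C3 is known for tagging synapses that microglia then remove.

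The 3 C1q genes lie side by side on the minus strand of chromosome 4, within 18.7 kb from 136880126 to 136898844 (GRCm38). C4b (chromosome 17, 34728139 to 34743902) and Cfb (34856374 to 34862514) lie 134 kb apart from end to end in the same region, C3 is farther along chromosome 17 (57203967 to 57228136), C3ar1 is on chromosome 6 (122847140 to 122856157), C5ar1 on chromosome 7 (16246743 to 16259540) and Serping1 on chromosome 2 (84765360 to 84775444). All 9 genes are on the minus strand. Promoters of 5 members (C1qb, C1qc, C3, C3ar1 and C5ar1) matched the RefSeq table for GRCm38.p6; C1qa, C4b, Serping1 and Cfb had no entry. The 250 bases before the start given in that table are shown for both C1q neighbours, whose levels ran nearly parallel, and for C3 and the receptor of its fragment, whose levels did not. They read 5′ to 3′ along the gene, and capitals mark a motif match. For C1qb, C3 and C3ar1 that start is the edge of the gene in the count table, whereas for C1qc it is 136892914, so that 22 of its printed bases lie inside the gene as counted; for C5ar1, searched but not printed, 202 of the 250 do.
C1qb, chr4:136886201-136886450, minus strand: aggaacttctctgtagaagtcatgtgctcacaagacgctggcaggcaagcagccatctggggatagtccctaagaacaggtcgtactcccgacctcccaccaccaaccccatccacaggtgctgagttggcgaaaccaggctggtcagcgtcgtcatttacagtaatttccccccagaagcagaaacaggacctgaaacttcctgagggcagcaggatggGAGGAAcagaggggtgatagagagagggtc
C1qc, chr4:136892915-136893164, minus strand: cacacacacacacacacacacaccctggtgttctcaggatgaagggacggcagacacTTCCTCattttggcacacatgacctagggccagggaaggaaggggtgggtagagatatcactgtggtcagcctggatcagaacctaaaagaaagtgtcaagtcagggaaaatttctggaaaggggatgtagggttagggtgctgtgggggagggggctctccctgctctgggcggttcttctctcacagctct
C3, chr17:57228137-57228386, minus strand: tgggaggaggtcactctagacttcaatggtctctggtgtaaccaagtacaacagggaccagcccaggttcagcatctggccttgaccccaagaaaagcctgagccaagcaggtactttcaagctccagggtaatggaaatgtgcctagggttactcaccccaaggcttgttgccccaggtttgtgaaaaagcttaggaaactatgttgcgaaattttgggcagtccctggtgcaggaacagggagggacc
C3ar1, chr6:122856158-122856407, minus strand: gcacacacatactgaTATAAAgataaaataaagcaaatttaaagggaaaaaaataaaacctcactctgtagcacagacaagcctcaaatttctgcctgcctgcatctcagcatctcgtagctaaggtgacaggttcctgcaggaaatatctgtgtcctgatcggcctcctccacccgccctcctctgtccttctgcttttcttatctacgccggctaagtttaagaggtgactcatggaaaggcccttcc

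Motifs were searched on both strands from 250 bases before to 50 bases after the table's start, from which positions are counted, in these 5 windows and in all 32851 promoters of the table. GAGGAA, a core recognised by the ETS family, was found in C1qb at position -30 and in C1qc at position -193 on the opposite strand, where it reads TTCCTC, and in 28.3% of all promoters. TATAAA, the TATA box, was found in C3ar1 at position -235 and in C3 at position 15, past the printed bases, against 13.6% of all promoters. Neither TTCNNNGAA (STAT, 8.3% of all promoters) nor the interferon response motif (3.44%) was in the 5 windows. These matches are descriptions of letters and not mapped sites.

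Total counts per mouse lay between 17960353 and 22216315. All 9 members passed the filter on low counts, which kept 17558 genes, and the lowest member count in any mouse was 10 (C5ar1 in Sham 2). Levels are given as CPM, counts scaled to the TMM-normalised library size, and differences as log2 fold changes from edgeR's quasi-likelihood test of all 12 mice with Benjamini-Hochberg adjusted p-values. Neuron, astrocyte and oligodendrocyte markers were present in every library. Some libraries stood apart: summed neutrophil markers (9 genes) were 208 CPM in Vehicle 1, 76.4 in Vehicle 2, 2.15 in Vehicle 3 and 11.3 in Vehicle 4, against 1.19 to 1.92 in Sham and 2.09 to 2.66 in LJP mice. Summed markers of recruited monocytes and macrophages (9 genes) were 737, 1450, 277 and 354 CPM in Vehicle mice 1 to 4, against 93.0 to 97.1 in Sham and 135 to 333 in LJP mice. Summed airway and lung markers (6 genes) were 9.03 to 13.6 CPM in the Sham and Vehicle libraries and 0.358 to 0.669 in the LJP libraries, where 4 of the 6 were at 0 in every mouse, so the LJP libraries differed from the others in transcripts foreign to brain. Summed choroid plexus markers (7 genes) were 32.4, 704, 441 and 915 CPM in Sham mice, 26.1, 29.5, 537 and 493 in Vehicle mice and 26.5, 27.1, 391 and 22.6 in LJP mice, low in Sham 1, in Vehicle mice 1 and 2 and in all LJP mice but LJP 3. The part of either in the complement results was not tested.

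After ischemia and reperfusion, all 9 complement genes were higher in Vehicle than in Sham mice, by 1.95-fold for Cfb to 35.7-fold for C5ar1. The median log2 fold change of the members was 2.79, against 0.00 over all genes tested. With LJP, none of the 9 passed the adjusted threshold against Vehicle, while all 9 estimates were below 0, the furthest for C3, C5ar1 and Serping1. Against Sham, 6 of the 9 were still higher in LJP mice: the C1q chains, C4b and both anaphylatoxin receptors.

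**Figure D1:**
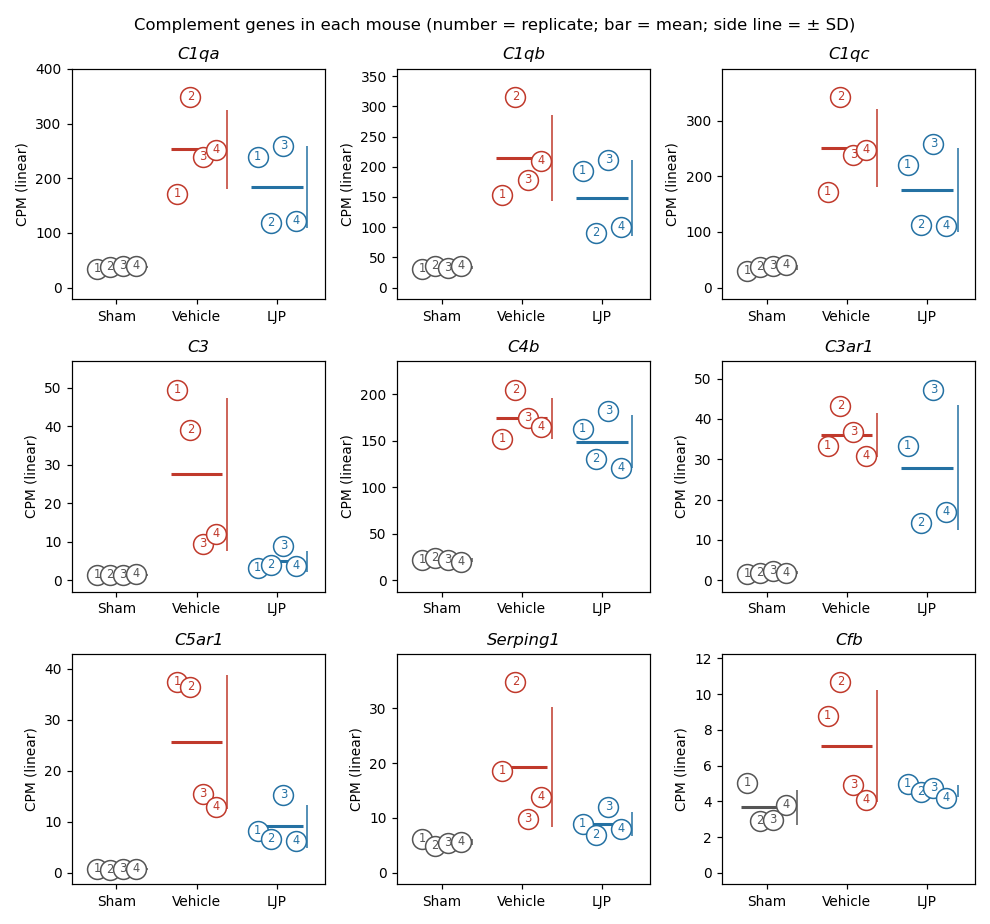
Level of each of the 9 complement genes in CPM (linear axis) in every mouse, with numbered circles for the mice, a bar for the group mean and a side line for ± SD (n = 4). The C1q chains, C4b and C3ar1 were high in all Vehicle and LJP mice, whereas C3, C5ar1, Serping1 and Cfb were highest in Vehicle mice 1 and 2.

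The question of the Vehicle and Sham comparison was what the injury changed. At an adjusted p below 0.05, 9 of 9 members rose, against 22.7% of all tested genes in that direction. In 8 of 9 every Vehicle mouse was above every Sham mouse, against 20.7% of all tested genes, and Cfb was the exception. The LJP and Vehicle comparison asked what the polysaccharide changed in injured brain. It gave 0 of 9 members by edgeR, where 0.0228% of all genes were called in either direction, all of them lower. These were 4 genes, of which 3 were the airway and lung transcripts Scgb1a1, Sftpa1 and Sftpb, foreign to brain. At an unadjusted p below 0.05, 4 of 9 members were lower (17.4% of all genes), and DESeq2 called 3 lower and 0 higher (9.15% and 3.69% of the genes it gave an adjusted p). The study's own cut-offs (p below 0.01 before adjustment and an absolute change above 0.58 on the log2 scale) also took 3 members as lower, both on the edgeR p-values used here (5.89% of all genes) and on those of DESeq2, the tool the study used (4.62% of the genes given a p). LJP and Sham mice differed in 6 of 9 members by edgeR, all higher in LJP mice, against 3.85% of all genes, and in 7 by DESeq2 (5.67%). In 8 of 9 members every LJP mouse was above every Sham mouse (12.9% of all genes). These comparisons share their groups, so they are not independent of each other.

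**Figure D2:**
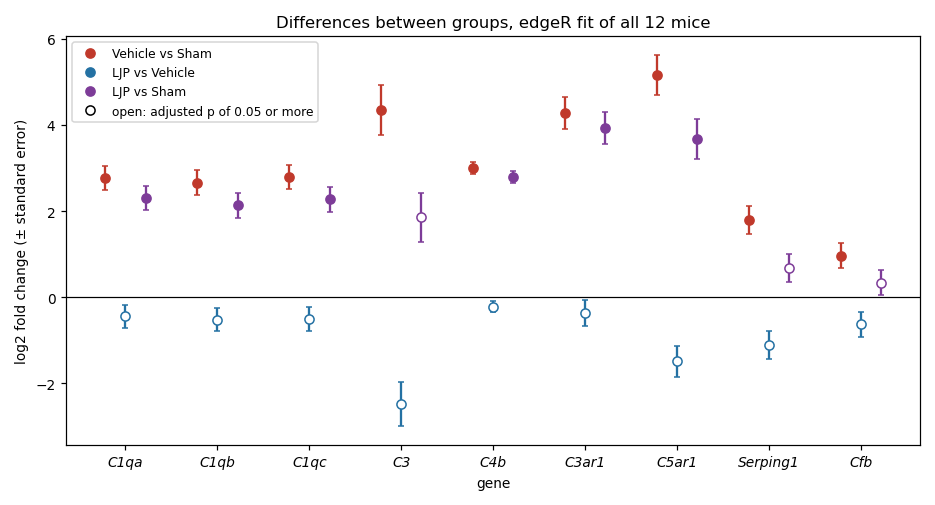
Log2 fold change (± standard error, edgeR, 4 mice per group) of each complement gene for Vehicle vs Sham, LJP vs Vehicle and LJP vs Sham; filled points have an adjusted p below 0.05. All Vehicle vs Sham points are filled and above 0, all LJP vs Vehicle points are open and below 0, and C3, Serping1 and Cfb are open for LJP vs Sham.

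C1qa encodes the A chain of C1q, the recognition molecule of the classical pathway. Its level was 34.5, 36.7, 39.2 and 38.9 CPM in Sham mice 1 to 4, 171, 348, 238 and 252 CPM in Vehicle mice, and 238, 118, 259 and 122 CPM in LJP mice. Every injured mouse was above every Sham mouse, the Vehicle and LJP mice overlapped, and LJP mice 1 and 3 stood at about the level of Vehicle mice 3 and 4 while LJP mice 2 and 4 lay below all Vehicle mice. C1qa was 6.76-fold higher in Vehicle than in Sham mice (log2 fold change 2.76, standard error 0.28, adjusted p = 9.06e-05). Between LJP and Vehicle mice the log2 fold change was -0.45 (95% confidence interval -1.02 to 0.11, adjusted p = 0.249), so neither no difference nor a fall of about the size of 1 log2 unit lay outside the interval. Against Sham it was 4.93-fold higher in LJP mice (log2 fold change 2.30, adjusted p = 0.000971). In bulk tissue a change in the number of cells of a type and a change in RNA per cell cannot be told apart.

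C1qb, the B chain gene, gave 31.0, 36.3, 32.4 and 35.7 CPM in Sham mice, 154, 315, 178 and 209 CPM in Vehicle mice, and 193, 89.7, 212 and 100.2 CPM in LJP mice. C1qc, the C chain gene, gave 30.5, 36.2, 38.5 and 39.8 CPM in Sham mice, 172, 342, 239 and 248 CPM in Vehicle mice, and 221, 112, 258 and 111 CPM in LJP mice. The order of the mice in both was nearly that of C1qa, with Vehicle 2 highest of all and LJP 2 and 4 lowest of the injured mice. Vehicle mice exceeded Sham mice 6.32-fold in C1qb (adjusted p = 0.000122) and 6.91-fold in C1qc (adjusted p = 9.85e-05). LJP and Vehicle mice differed by a log2 fold change of -0.53 in C1qb (95% interval -1.12 to 0.07, adjusted p = 0.212) and -0.51 in C1qc (-1.10 to 0.07, adjusted p = 0.216). Both stayed above Sham in LJP mice, 4.39-fold (adjusted p = 0.00165) and 4.84-fold (adjusted p = 0.00116).

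The chains kept nearly fixed proportions. Per kb of transcript, the log2 ratio of the C1qc to the C1qa level was between -0.24 and -0.03 in all 12 mice, and that of C1qb to C1qa between -0.45 and -0.05. Summed microglial markers (12 genes) were 358 to 363 CPM in Sham mice, 498, 1000, 1090 and 1150 in Vehicle mice, and 1190, 645, 1190 and 665 in LJP mice, so LJP mice 1 and 3 were high and 2 and 4 low in these as in C1q. Of the 12 markers, 9 passed as higher in Vehicle than in Sham mice, against 22.7% of all tested genes. Between LJP and Vehicle mice 0 differed by edgeR (0.0228% of all genes) and 0 at an unadjusted p below 0.05 (29.7%). DESeq2 also called 0 (3.69% higher and 9.15% lower of the genes it gave an adjusted p). The log2 ratio of summed C1q to summed microglial marker levels was -1.90 to -1.66 in Sham, -0.73 to 0.01 in Vehicle and -1.01 to -0.71 in LJP mice. C1q thus rose beyond this marker sum in every injured mouse, with Vehicle mice 1 and 2 highest and LJP mouse 3 inside the Vehicle range.

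C4b encodes C4, which C1s cleaves and which then binds covalently to the target. Its level was 21.3, 24.1, 21.3 and 20.0 CPM in Sham mice, 152, 205, 174 and 165 CPM in Vehicle mice, and 163, 130, 182 and 120 CPM in LJP mice. Every injured mouse was far above the Sham mice, and the Vehicle and LJP ranges overlapped. C4b was 8.01-fold higher in Vehicle than in Sham mice (log2 fold change 3.00, standard error 0.14, adjusted p = 5.65e-07) and 6.86-fold higher in LJP than in Sham mice (adjusted p = 1.33e-06), and it ranked 1 by p-value among all 17558 genes in both comparisons. LJP and Vehicle mice differed by a log2 fold change of -0.22 (95% interval -0.51 to 0.06, adjusted p = 0.257). The near-identical neighbour C4a had 16 to 26 counts in Sham, 24 to 32 in Vehicle and 23 to 40 in LJP mice, so reads shared between the pair could be split; summing both left the calls of C4b as they were.

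C3 encodes the protein on which all complement pathways converge, and it separated the injured mice more than C4b did. There were 21, 23, 22 and 33 counts in Sham mice, 1090, 909, 172 and 224 in Vehicle mice, and 69, 78, 164 and 64 in LJP mice. In CPM this was 1.21 to 1.71 in Sham mice, 49.5, 39.1, 9.26 and 12.1 in Vehicle mice, and 3.13, 3.99, 8.92 and 3.57 in LJP mice. The groups did not overlap in any comparison, but LJP 3 came close to Vehicle 3, and Vehicle mice 1 and 2 stood far above 3 and 4. C3 was 20.3-fold higher in Vehicle than in Sham mice (log2 fold change 4.35, standard error 0.58, adjusted p = 0.000288), and the log2 fold change was 2.97 without Vehicle mice 1 and 2. Leaving out both mice, a setting used again below, was chosen after the values were seen. It removes the highest Vehicle mice of C3, C5ar1, Serping1 and Cfb, so smaller differences had to follow for these genes. It also leaves fewer mice, so a call can be lost for that reason.

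In LJP mice the C3 level was lower than in Vehicle mice by an estimate of 5.63-fold (log2 fold change -2.49, standard error 0.51, 95% interval -3.60 to -1.39). Its unadjusted edgeR p was 0.000318 and its adjusted p 0.0678, short of the threshold; by DESeq2 the adjusted p was 0.00167. An exact two-sided permutation test of the 4 LJP and 4 Vehicle mice gave p = 0.0286, the smallest this design allows. C3 was the only member whose LJP and Vehicle mice did not overlap, a pattern in the lower direction shown by 5.91% of all tested genes. Without Vehicle 3 the edgeR adjusted p was 0.00879 and without Vehicle 4 it was 0.031, whereas without Vehicle mice 1 and 2 the log2 fold change was -1.13 (adjusted p = 0.175). Against Sham, C3 was 3.61-fold higher in LJP mice with an adjusted p of 0.0913, which fell to 0.0014 when Vehicle mice were left out of the fit, to 0.0226 by DESeq2 and to 0.0436 without Vehicle 3. With any other single mouse left out the edgeR adjusted p stayed above the threshold, and it reached 0.292.

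Set against C4b, C3 changed unequally. The log2 ratio of C3 to C4b was -4.27 to -3.55 in Sham mice, -1.62, -2.39, -4.23 and -3.77 in Vehicle mice, and -5.70, -5.02, -4.35 and -5.08 in LJP mice. All LJP mice had less C3 for their C4b than any Sham or Vehicle mouse, and only Vehicle mice 1 and 2 had more than the Sham mice.

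Cfb encodes factor B, the protease component of the alternative C3 convertase, and showed the smallest change of the members in Vehicle against Sham and in LJP against Sham mice. Its level was 5.02, 2.89, 2.96 and 3.78 CPM in Sham mice, 8.76, 10.7, 4.90 and 4.10 CPM in Vehicle mice, and 4.95, 4.50, 4.73 and 4.18 CPM in LJP mice. Only Vehicle mice 1 and 2 were above the highest Sham mouse. Cfb was 1.95-fold higher in Vehicle than in Sham mice (log2 fold change 0.96, standard error 0.29, adjusted p = 0.0197), a call that was lost without Vehicle 1 (adjusted p = 0.0525), Vehicle 2 (0.0568), Sham 2 (0.0594) or Sham 3 (0.0579), in a fit of these groups alone (0.0544), and without Vehicle mice 1 and 2, where the log2 fold change was 0.29 (0.362). Between LJP and Vehicle mice the log2 fold change was -0.63 (95% interval -1.25 to -0.02, adjusted p = 0.16), and it was 0.03 without Vehicle mice 1 and 2. LJP and Sham mice differed by 0.33 (95% interval -0.30 to 0.96, adjusted p = 0.6).

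C3ar1 encodes the receptor for C3a, carried by microglia and other myeloid cells. Its counts were 28, 33, 42 and 32 in Sham mice, 732, 1007, 685 and 570 in Vehicle mice, and 735, 277, 869 and 304 in LJP mice. LJP 3 had 47.3 CPM, above the Vehicle maximum of 43.3, and LJP 2 and 4 had 14.2 and 16.9 CPM, below the Vehicle minimum of 30.7. C3ar1 was 19.5-fold higher in Vehicle than in Sham mice (log2 fold change 4.28, standard error 0.37, adjusted p = 4.65e-05) and 15.1-fold higher in LJP than in Sham mice (log2 fold change 3.92, adjusted p = 0.00024). The LJP and Vehicle groups differed by -0.37 (95% interval -1.02 to 0.29, adjusted p = 0.419).

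C5ar1 encodes the receptor for C5a, a chemoattractant receptor abundant on neutrophils and also found on macrophages and microglia. It had 12, 10, 15 and 15 counts in Sham mice, 822, 848, 287 and 240 in Vehicle mice, and 181, 130, 281 and 112 in LJP mice. As CPM the Vehicle mice read 37.3, 36.4, 15.4 and 12.9 and the LJP mice 8.22, 6.65, 15.3 and 6.24. Vehicle mice 1 and 2 were again highest, and LJP 3 lay between Vehicle 3 and Vehicle 4. This gene had the largest Vehicle against Sham change of the members, 35.7-fold (log2 fold change 5.16, standard error 0.47, adjusted p = 5.24e-05), which was 4.30 on the log2 scale without Vehicle mice 1 and 2. LJP mice were lower than Vehicle mice by an estimate of 2.81-fold (log2 fold change -1.49, 95% interval -2.28 to -0.70), with an edgeR adjusted p of 0.0678 and a DESeq2 adjusted p of 0.00413. Without Vehicle 3 the edgeR adjusted p was 0.0137, without Vehicle 4 it was 0.031, and without Vehicle mice 1 and 2 the log2 fold change was -0.64 (adjusted p = 0.332). LJP mice remained 12.7-fold above Sham (adjusted p = 0.00116).

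Serping1 encodes C1 inhibitor, the serpin that inactivates C1r and C1s. Its level was 6.17, 4.90, 5.48 and 5.70 CPM in Sham mice, 18.6, 34.8, 9.80 and 13.7 CPM in Vehicle mice, and 8.86, 6.90, 11.9 and 8.03 CPM in LJP mice. Vehicle 2 was highest, every injured mouse was above every Sham mouse, and LJP 3 was above Vehicle 3. Serping1 was 3.46-fold higher in Vehicle than in Sham mice (log2 fold change 1.79, standard error 0.33, adjusted p = 0.00162), and 1.08 on the log2 scale without Vehicle mice 1 and 2. LJP mice were lower than Vehicle mice by an estimate of 2.16-fold (log2 fold change -1.11, 95% interval -1.80 to -0.43, edgeR adjusted p = 0.0701, DESeq2 adjusted p = 0.0122). The edgeR adjusted p was 0.0128 without Vehicle 3 and 0.0375 without Vehicle 4, and the log2 fold change was -0.40 (adjusted p = 0.394) without Vehicle mice 1 and 2. Against Sham the LJP mice differed by 0.68 (95% interval -0.02 to 1.39, edgeR adjusted p = 0.282, DESeq2 adjusted p = 0.224). The edgeR adjusted p was 0.00998 in a fit of these groups alone, 0.0101 without Vehicle mice 1 and 2, and 0.0505 to 0.582 with single mice left out.

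Compared per kb of transcript, the C1q chains were the most abundant members in each group and C4b the next. In Sham mice C1qa stood at 34.5 ± 2.03 CPM per kb (SD, n = 4), C1qc at 32.2 ± 3.64 and C1qb at 30.7 ± 2.30, with overlapping spreads between mice, while C4b was at 3.86 ± 0.311. Set side by side within each mouse, C1qc and C1qb were below C1qa in all 12 mice, by the ratios given above. The order below C4b was Serping1, Cfb, C3ar1, C5ar1 and C3 in Sham mice, from 3.02 ± 0.286 to 0.258 ± 0.0469 CPM per kb, and the spreads of C5ar1 and C3 overlapped. In Vehicle mice it was Serping1, C5ar1, C3ar1, C3 and Cfb, from 10.5 ± 5.96 to 2.57 ± 1.13, and the spreads of Serping1, C5ar1, C3ar1 and C3 overlapped, as did those of C3 and Cfb. In LJP mice it was C3ar1, Serping1, C5ar1, Cfb and C3, from 6.50 ± 3.59 to 0.941 ± 0.519, and the spreads of C3ar1, Serping1 and C5ar1 overlapped.

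The members varied among mice in 2 blocks, grouped after their values were seen. After the group means were subtracted, the log2 levels of C1qa, C1qb, C1qc, C4b and C3ar1 had pairwise correlations of 0.83 to 0.99 over the 12 mice (10 pairs), and those of C3, C5ar1, Serping1 and Cfb 0.70 to 0.91 (6 pairs). Between the blocks the 20 pairs had correlations of 0.09 to 0.63. The points share libraries, normalisation and groups of 4, and the values are a description. In the first block the LJP against Vehicle log2 fold changes lay between -0.53 and -0.22, and in the other between -2.49 and -0.63. The receptors fell in different blocks: the log2 ratio of C5ar1 to C3ar1 was 0.17 and -0.25 in Vehicle mice 1 and 2, and between -2.02 and -1.09 in all other mice.

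**Figure D3:**
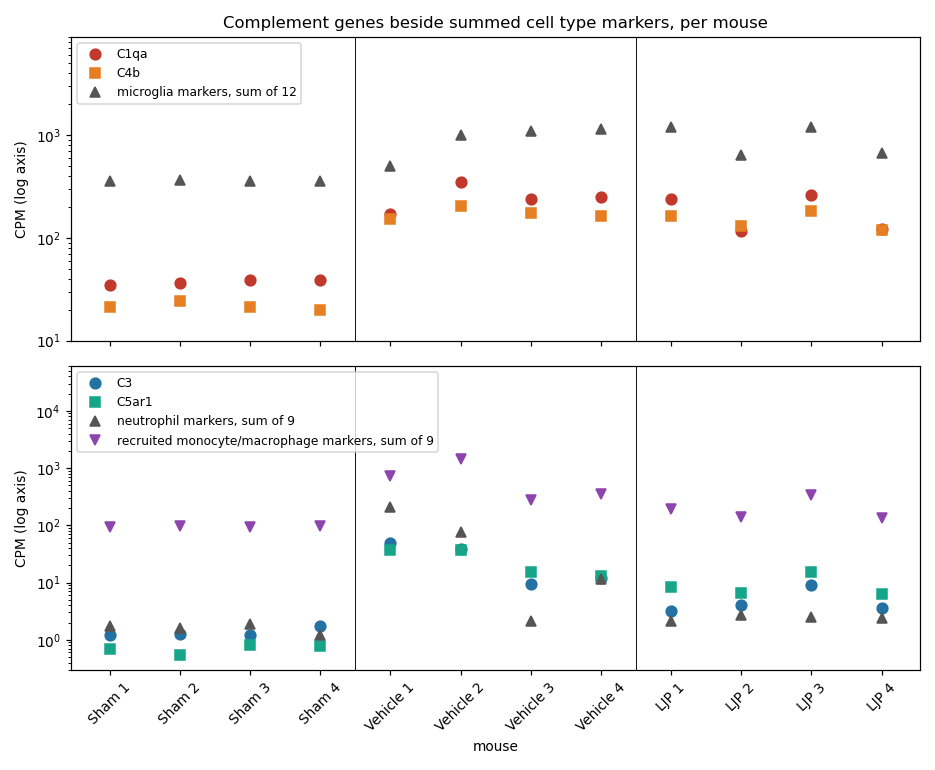
CPM (log axes) in each mouse of C1qa and C4b beside summed microglial markers (upper panel), and of C3 and C5ar1 beside summed neutrophil and recruited monocyte and macrophage markers (lower panel). C1qa and the microglial sum are both low in LJP mice 2 and 4, and C3, C5ar1 and both lower marker sums are highest in Vehicle mice 1 and 2.

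The second block was high in the same mice as the markers of cells that enter from blood or line vessels. In Vehicle mice 1 and 2 summed border macrophage markers (7 genes) were 79.8 and 207 CPM, against 33.9 and 45.7 in Vehicle mice 3 and 4, and summed endothelial markers (7 genes) were 720 and 1530 against 311 and 374. Summed fibroblast and meningeal markers (7 genes) reached 1440 CPM in Vehicle 2 and lay between 175 and 312 in the other Vehicle mice. In LJP mice these sums were 16.6 to 32.8, 218 to 285 and 114 to 168 CPM. Neutrophil markers were at or near the Sham level in Vehicle 3 and in all LJP mice, where C5ar1 was 6.24 to 15.4 CPM against at most 0.822 in Sham mice. The part of these cells in the LJP against Vehicle differences was not tested. Without Vehicle mice 1 and 2, 8 members were called higher in Vehicle than in Sham mice (15.7% of all genes in that fit), 0 members differed between LJP and Vehicle mice (0.0443%), and 8 were higher in LJP than in Sham mice (12.3%).

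The 5 genes most like C1qa over the 12 mice by Pearson correlation of log2 CPM were C1qc (0.999), Grn (0.999), Ctsz (0.997), Gusb (0.997) and C1qb (0.997). Those most like C3 were Tkt (0.994), Hmox1 (0.991), Ogg1 (0.99), Ezr (0.989) and Col2a1 (0.989). Those most like C4b were Tlr2 (0.993), Gfap (0.993), C3ar1 (0.989), Milr1 (0.988) and Cd68 (0.988). These values are dominated by the group differences. With group means subtracted, C1qc (0.991), Grn (0.99) and Ctsz (0.99) again led for C1qa, followed by Ctsa and Irf8, and Ezr (0.979) and Tkt (0.976) again for C3, followed by Ykt6, Mrpl2 and Fosl1. For C4b none of the earlier genes stayed among the leading 5, which were Soat1 (0.982), Chek2 (0.97), Edem1 (0.969), Fuca2 (0.966) and Vav1 (0.956).

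The rest of the pathway was read from a list of 51 other complement genes, of which 32 had enough counts to be tested and 19 did not. Between Vehicle and Sham mice 13 of the 32 rose and 3 fell, against 22.7% and 17.3% of all tested genes, and the median log2 fold change was 0.43. Between LJP and Vehicle mice 0 of 32 passed by edgeR, 15 had an unadjusted p below 0.05 (29.7% of all genes), and DESeq2 called 1 higher and 9 lower (3.69% and 9.15% of the genes it gave an adjusted p); the median was -0.29. Between LJP and Sham mice 5 rose, against 3.85% of all tested genes, and 0 fell, with a median of 0.24.

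**Figure D4:**
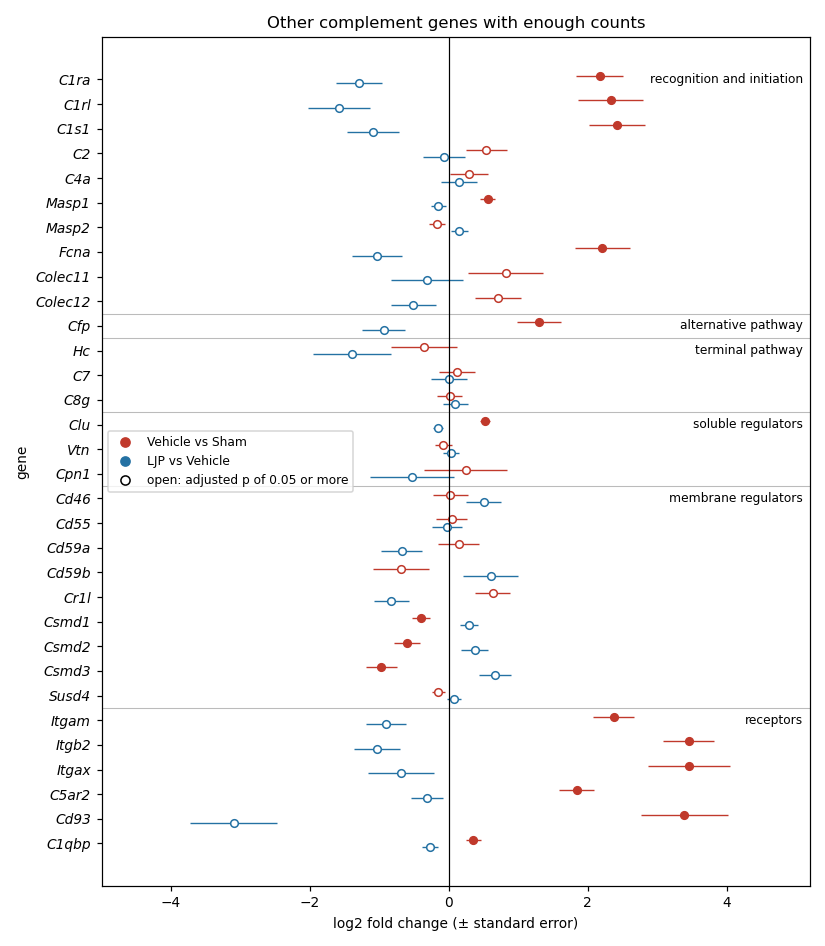
Log2 fold change (± standard error, edgeR) of the 32 other complement genes tested, by role, for Vehicle vs Sham and LJP vs Vehicle; filled points have an adjusted p below 0.05. All 6 receptors are filled and above 0 for Vehicle vs Sham, the 3 Csmd genes are filled and below 0, and every LJP vs Vehicle point is open.

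Of the recognition and initiation genes, 5 of 10 tested rose in Vehicle against Sham mice and 0 fell, where 22.7% of all tested genes rose and 17.3% fell. C1ra, the protease that activates C1s, had 35 to 49 counts in Sham mice, 231, 404, 103 and 101 in Vehicle mice and 65 to 86 in LJP mice. It rose by a log2 fold change of 2.17 (adjusted p = 0.000759), or 1.34 without Vehicle mice 1 and 2. C1s1, the protease that cleaves C4 and C2, rose by 2.42 (adjusted p = 0.00106), or 1.60 without these mice, and Fcna, a ficolin of the lectin pathway, by 2.21 (adjusted p = 0.00146) from 4 to 9 counts in Sham to 18 to 51 in Vehicle mice. Fcna and C1rl (6 to 14 counts in Sham mice), both among the 5, passed the filter on low counts through the injured mice. Their calls are therefore not independent of that filter. In C1ra no LJP mouse overlapped a Vehicle mouse, and the log2 fold change between them was -1.29 (adjusted p = 0.0678 by edgeR and 0.00588 by DESeq2), or -0.46 without Vehicle mice 1 and 2. C2, which joins C4b in the classical convertase, had a log2 fold change of 0.54 between Vehicle and Sham mice (adjusted p = 0.17), and C4a 0.29 (adjusted p = 0.398). C2 passed without Vehicle 4 (0.75, adjusted p = 0.0369) and stood at 0.15 without Vehicle 2. C1ra and C1s1 have close copies in the mouse genome, so how shared reads were counted could affect their values.

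In the alternative pathway Cfp, properdin, which stabilises the convertase, rose in Vehicle mice by 1.30 (adjusted p = 0.00716), or 0.61 without Vehicle mice 1 and 2. Cfd, factor D, which cleaves factor B, had at most 2 counts in any mouse, at or under the floor of 3 counts, and no fold is given. In the terminal pathway 0 of 3 tested genes passed in any comparison by edgeR or DESeq2, and at an unadjusted edgeR p below 0.05 the only one was Hc, lower in LJP than in Vehicle and in Sham mice; 4 of 7 genes were not tested. Hc, which encodes C5, the precursor of C5a, had 4 to 20 counts in Sham, 7 to 13 in Vehicle and 1 to 5 in LJP mice, with log2 fold changes of -0.36 for Vehicle against Sham (adjusted p = 0.568) and -1.40 for LJP against Vehicle (adjusted p = 0.126). Its LJP against Sham log2 fold change was -1.76 (edgeR adjusted p = 0.0934), which met the study's cut-offs, and it passed the adjusted threshold without Vehicle mice 1 and 2 (-1.77, adjusted p = 0.0313).

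Of the soluble regulators, 1 of 3 tested rose in Vehicle mice, against 22.7% of all tested genes. Clu, clusterin, an abundant chaperone that also restrains the membrane attack complex, rose by 0.52 (standard error 0.07, adjusted p = 0.000295) and was still above Sham in LJP mice by 0.35 (adjusted p = 0.0111), a call that was lost with the replicate number as a block (0.0548) and without Sham 1 (0.0553). Its LJP mice, 810 to 841 CPM, lay between the Sham range of 607 to 678 and the Vehicle range of 868 to 977. The LJP against Vehicle log2 fold change of Clu was -0.16 (edgeR adjusted p = 0.141, DESeq2 adjusted p = 0.0474).

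Of the membrane regulators, 0 of 9 rose and 3 fell in Vehicle mice by edgeR and by DESeq2 (22.7% and 17.3% of all tested genes by edgeR), and Cr1l was the 1 gene higher at an unadjusted p below 0.05. Those that fell were Csmd3 (log2 fold change -0.97, adjusted p = 0.00584), Csmd2 (-0.60, adjusted p = 0.0233) and Csmd1 (-0.40, adjusted p = 0.0277), large neuronal proteins with complement control domains. Without Vehicle mice 1 and 2 their log2 fold changes were -0.63, -0.25 and -0.22. The call of Csmd1 was lost in a fit of these groups alone (adjusted p = 0.0583), with the replicate block (0.057), with scaling by library size only (0.0512), without Sham 1, 2 or 3 (0.0716, 0.0674 and 0.0718), without Vehicle 1 (0.0605) and without Vehicle mice 1 and 2 (0.127). That of Csmd2 was lost in a fit of these groups alone (0.0645) and without Sham 1 (0.0703), Sham 3 (0.0514) or Vehicle 1 (0.0643). Csmd3 was higher in LJP than in Vehicle mice by 0.66, without overlap (edgeR adjusted p = 0.0953, DESeq2 adjusted p = 0.0443). By edgeR this passed without Vehicle 3 (0.0473) or Vehicle 4 (0.0399), and the log2 fold change was 0.31 without Vehicle mice 1 and 2. Summed neuronal markers (7 genes) were 5960 to 6600 CPM in Sham mice, 4910, 3660, 5790 and 5540 in Vehicle mice and 5560 to 6670 in LJP mice, lowest in Vehicle 2 as was each Csmd gene. Cd55 and Cd59a, which protect host cells from the convertases and the membrane attack complex, had Vehicle against Sham log2 fold changes of 0.04 (95% interval -0.44 to 0.52) and 0.14 (-0.50 to 0.77), and Cr1l, which encodes the rodent regulator Crry, 0.63 (adjusted p = 0.066). Cr1l passed with scaling by library size only (0.0483) and without Vehicle 3 (0.0227) or Vehicle 4 (0.028), and its log2 fold change was 0.07 without Vehicle mice 1 and 2. No LJP mouse overlapped a Vehicle mouse in Cr1l, where LJP against Vehicle gave -0.83 on the log2 scale (edgeR adjusted p = 0.0769, DESeq2 adjusted p = 0.0236), or -0.27 without Vehicle mice 1 and 2.

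All 6 receptor genes tested rose in Vehicle mice (22.7% of all genes), and 4 were above Sham in LJP mice (3.85%). Itgax, counted in both, had 3 to 9 counts in Sham and 37 to 116 in Vehicle mice. It passed the filter on low counts through the injured mice, so its calls are not independent of that filter. Itgam and Itgb2 encode the chains of complement receptor 3, which binds cleaved C3 on targets. Itgam was 18.6 to 23.7 CPM in Sham mice, 139, 132, 69.0 and 78.2 in Vehicle mice and 72.3, 34.2, 79.0 and 37.2 in LJP mice. Its log2 fold change was 2.37 for Vehicle against Sham (adjusted p = 0.000243), -0.91 for LJP against Vehicle (edgeR adjusted p = 0.0795, DESeq2 adjusted p = 0.0234) and 1.45 for LJP against Sham (adjusted p = 0.0149), the last lost without LJP 3 (0.0543), Sham 1 (0.0589), Sham 3 (0.0538) or Sham 4 (0.0528). Without Vehicle mice 1 and 2 the LJP against Vehicle value of Itgam was -0.40. Itgb2 rose by 3.45 in Vehicle mice (adjusted p = 0.000107) and was 2.41 above Sham in LJP mice (adjusted p = 0.00242), and between LJP and Vehicle mice it differed by -1.04 (edgeR adjusted p = 0.0789, DESeq2 adjusted p = 0.0212), or -0.51 without Vehicle mice 1 and 2. C5ar2, the other C5a receptor, rose by 1.84 in Vehicle mice (adjusted p = 0.000336), differed by -0.32 between LJP and Vehicle mice (95% interval -0.82 to 0.18) and was 1.52 above Sham in LJP mice (adjusted p = 0.00437). Cd93, a receptor once described as binding C1q and abundant on endothelial and myeloid cells, is named after its values were seen. It had 190, 140, 186 and 231 counts in Sham mice, 2806, 5542, 375 and 769 in Vehicle mice and 249, 162, 388 and 163 in LJP mice. Vehicle mice 1 and 2 were far above all others, and LJP 3 lay above Vehicle 3. Its log2 fold change was 3.39 for Vehicle against Sham (adjusted p = 0.00186) and -3.10 for LJP against Vehicle (edgeR adjusted p = 0.0678, DESeq2 adjusted p = 0.000791), and without Vehicle mice 1 and 2 these were 1.59 (0.00158) and -1.31 (0.155).

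**Figure D5:**
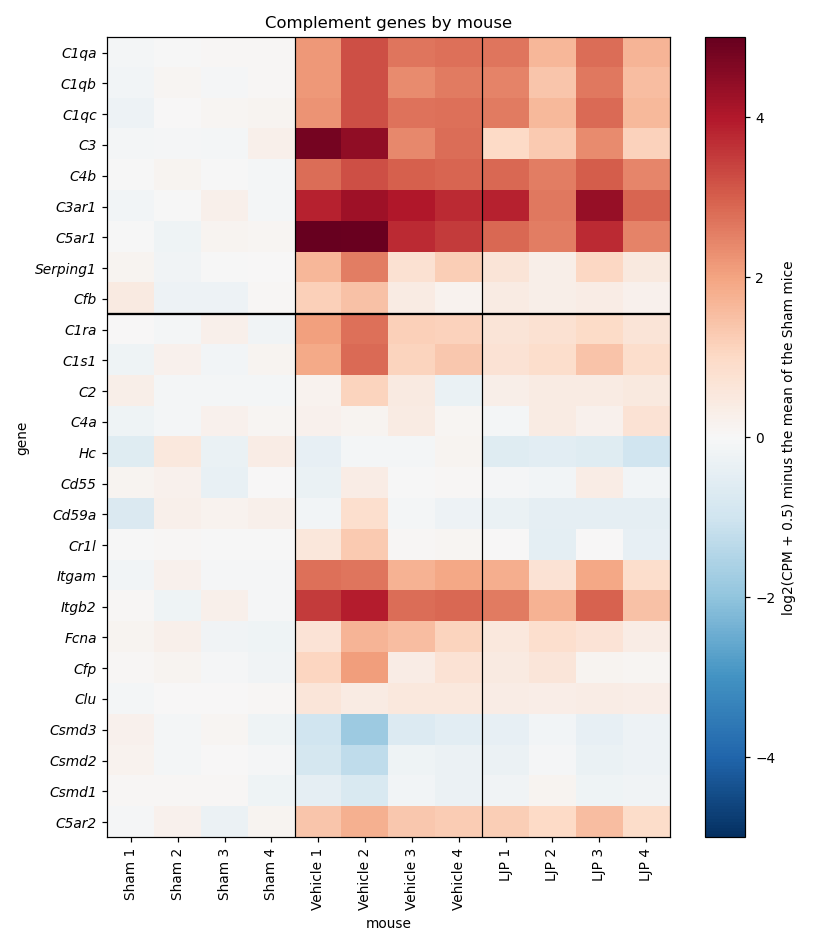
Log2(CPM + 0.5) of the 9 complement genes (above the black line) and of other named complement genes, minus the mean of the Sham mice, with mice in columns. The C1q chains, C4b and C3ar1 are raised in all 8 injured mice, C3 and C5ar1 are darkest in Vehicle mice 1 and 2, and the Csmd genes are lowest in Vehicle 2.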

How the data were processed

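Poly(A) RNA of ischemic hemispheres of 12 mice was sequenced. The authors deposited raw counts per gene and mouse, without normalisation. The submitters' processing notes name featureCounts and DESeq2 and the builds GRCm39 and mm10; 39750 of 39756 genes in the table have the start and end of RefSeq GRCm38.p6, and the aligner, strand setting and handling of shared reads are not given in the sources used here. The counts were tested with edgeR 4.0.16 under R 4.3.3 (filterByExpr, TMM, quasi-likelihood fit with a coefficient per group, all 12 mice), and p-values were Benjamini-Hochberg adjusted. DESeq2 1.42.0, other normalisations, no filter, fits of 2 groups, a replicate block and leaving out mice were alternatives. A count of 0 allows up to 3 counts, or 0.129 to 0.173 CPM, which covers counting error only. The test was tried on simulated counts: for Vehicle vs Sham it recovered 174 of 200 changed genes among 17558, with 5 false calls, and for LJP vs Sham 176 of 200 with 10 false calls; no change was simulated for LJP vs Vehicle, which gave 0 false calls. No library was a duplicate: within groups every pair exceeded sampling noise (chi-square per degree of freedom at least 2.52). This measure reached 122 between Vehicle mice and 6.41 between Sham mice, whereas the simulation gave all groups the same spread. The simulated rates of recovery and false calls therefore need not hold in these data. The members, lists, motifs and rules were chosen with earlier results of these data known. Named genes were the members, a fixed set of pathway genes, the 3 with the smallest p-values per role and comparison among those past the threshold, and the 5 most like C1qa, C3 and C4b. Protein sequences were not used here, and 1 gene of the planned list is not reported here. Plots were drawn with matplotlib 3.10.9.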

Additional observations from a re-analysis of the deposited data

Results flagged for a closer look

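Within groups of 4 mice, each of 27 named complement genes was checked for a mouse whose gap to its nearest neighbour was a larger share of the group's whole range than Dixon's 95% critical value for 4 values. Of 81 groups 13 passed it. In 2 of these, both of Cfd, 3 mice were at 0, so that any count in the fourth had to pass; of the other 79 groups 11 passed, where chance gives about 1 in 20. Among the members, C3 was high in Sham 4 (gap 0.906 of the range, 1.71 against 1.25 CPM in the next mouse) and in LJP 3 (0.852, 8.92 against 3.99 CPM). Vehicle 2 was high for Cd59a (0.903, 7.78 against 3.82 CPM) and C5ar2 (0.851, 4.68 against 3.36 CPM). Cd59a was also low in Sham 1 (0.884) and high in LJP 1 (0.886), the latter by 3.13 against 2.86 CPM. C2 and Cr1l stood apart in Sham mice 1 (0.986) and 2 (0.866), both high. Csmd1 was low in Sham 4 (0.943) and high in LJP 2 (0.849), and Cd55 was high in LJP 3 (0.857). Cfd was the only listed gene with the full gap of 1.0, in Sham 4 and in LJP 3, where 2 counts and 1 count stood against 0 in the other mice of each group, all under the floor of 3 counts.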

How the results depend on the processing

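Of the members' fold changes under the alternatives that keep the adjusted threshold, 543 kept direction and side of it, 17 newly passed it, 6 lost it and 1 changed sign (Cfb, LJP against Vehicle, 0.03 without Vehicle mice 1 and 2, an alternative chosen after seeing the data). Leaving out single mice gave 8 to 9 members called for Vehicle against Sham, 0 to 3 for LJP against Vehicle (3 without Vehicle 3 or Vehicle 4) and 6 to 7 for LJP against Sham. For LJP against Vehicle, where 0 members, 0 listed genes and 4 of all genes were called, DESeq2 called 3, 10 and 2298, the study's cut-offs 3, 6 and 1223 on edgeR p-values and 3, 9 and 1709 on those of DESeq2 (chosen after seeing the data), and no low-count filter 2, 2 and 593. All genes called were 2 in a fit of these groups alone, 2 with the replicate block and 8 without Vehicle mice 1 and 2. Leaving out single mice gave 3 to 3857 genes (3857 without Vehicle 3, 2095 without Vehicle 4) and 0 to 11 listed genes. For LJP against Sham, with 834 genes and 5 listed genes called, a fit of these groups alone gave 4043 and 11, and leaving out Vehicle mice 1 and 2 gave 4389 and 12. DESeq2 gave 1458 genes, the study's cut-offs on its p-values 1304 and the replicate block 464, and single mice left out gave 393 to 2357 genes (2357 without Vehicle 2) and 3 to 8 listed genes. For Vehicle against Sham the study's cut-offs took 3807 of all genes on edgeR and 4395 on DESeq2 p-values against 7014, and single mice left out gave 5285 to 8200 genes and 14 to 18 listed genes. Replicate numbers are not stated to pair the mice. Same-numbered deviations correlated at -0.32 to 0.11, with 1 of 12 pairs over 0.1, which cannot exclude a pairing. The replicate block changed no member's call. Of the other named genes the block lost Clu for LJP against Sham (0.0548) and Csmd1 for Vehicle against Sham (0.057). Uncalled values that changed sign were those of C2 for LJP against Vehicle (0.01 with the replicate block, 0.33 without Vehicle mice 1 and 2), Cd59a for Vehicle against Sham (-0.25 without Vehicle mice 1 and 2) and, with single mice left out, Cd55 (Vehicle against Sham -0.12 to 0.16, LJP against Vehicle -0.18 to 0.13, LJP against Sham -0.14 to 0.10), Cd59a (Vehicle against Sham -0.24 to 0.26), C2 (LJP against Vehicle -0.28 to 0.31) and C4a (LJP against Vehicle -0.06 to 0.31). The cause of these changes was not tested.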
